A study of Mus musculus with 25 samples.

Results

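Neurons sorted by the nuclear antigen NeuN from brains of mice aged 6 months were compared between carriers of a transgene for human tau bearing P301S (labelled hMAPT-P301S) and their non-transgenic littermates (non-Tg). The comparison takes every library labelled as neuron, 14 of the 25 libraries in the series, of which 6 were P301S and 8 were non-Tg. The other 11 libraries came from astrocytes sorted by Gfap (5 P301S and 6 non-Tg) and are used only for reference levels. Total RNA was sequenced and counted per gene. The labels name neither the promoter that drives the transgene nor the mouse line, the sex of the animals, the brain region, or if animals were pooled. The p-values therefore speak of the spread among these libraries, which may be partly technical.

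Tau, encoded by Mapt, binds and stabilises axonal microtubules, and the P301S mutation lies in its microtubule-binding region and causes an inherited frontotemporal dementia. In mice that express the mutant protein, neurons accumulate phosphorylated, aggregated tau, and glia around them become reactive. Type I interferons act through their receptor and transcription factors such as Stat2 and Irf9 to switch on antiviral genes, many of which encode sensors or inhibitors of foreign RNA. NeuN is the protein product of Rbfox3, a splicing regulator of mature neurons.

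Neuron libraries held between 1245964 and 4453555 counts. Levels below are CPM, that is counts for every 1e+06 counts of a library, scaled with TMM factors, and 3 counts correspond to 0.674 to 2.41 CPM across the libraries, a limit that covers counting error only. Rbfox3 ran from 59.6 to 130 CPM in non-Tg libraries (median 72.2) and from 58.2 to 98.2 in P301S libraries (median 81.5). Syt1, the calcium sensor of synaptic vesicle release, was present in every library at 315 to 581 CPM, so both markers fit the label. Non-Tg neuron libraries 5 and 8 carry sample identifiers in another range than the other 12, for a reason the labels do not give. They lay at opposite ends of the first principal component (57.5 and -55.2, 36.2% of the variance), with the other 12 libraries between -34.0 and 34.1. The main count of called genes, and many gene and list values, are therefore given with all 14 libraries and without these 2. Xist (50 to 167 counts) and the Y-linked gene Uty (117 to 421 counts) were both present in every neuron library, and the sex of the animals is not given.

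**Figure D1:**
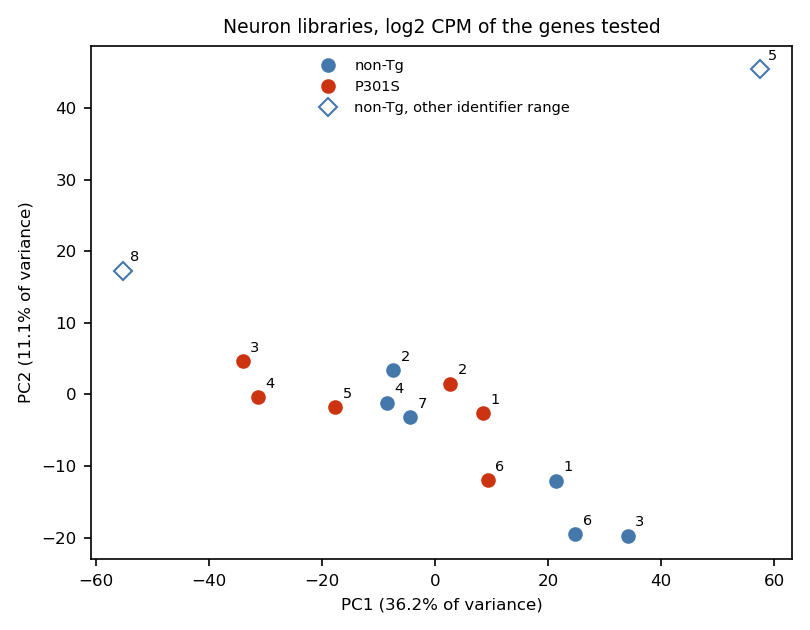
First 2 principal components of log2 CPM of the genes tested, with 1 point per neuron library numbered by replicate (blue non-Tg, red P301S); open diamonds are non-Tg libraries 5 and 8. These 2 libraries lie at the extremes of the first component (57.5 and -55.2), while the P301S libraries span -34.0 to 9.32 and the other non-Tg libraries -8.47 to 34.1.

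Few genes were called for genotype in the main test, a count that does not measure the size of the effects. Of 10951 genes tested with the quasi-likelihood test of edgeR, 1 gene rose and none fell in P301S neurons at an adjusted p under 0.05 (0.00913% of the genes tested). At an unadjusted p under 0.05 the count was 846 genes (7.73%), 333 of them higher (3.04%) and 513 lower (4.68%). The median log2 fold change over all genes tested was -0.02, a value that TMM scaling holds near 0 in advance. In 24 genes the groups did not overlap (0.219%), with every P301S library above every non-Tg library in 13 (0.119%) and below in 11 (0.1%). Without non-Tg libraries 5 and 8 the same test called 38 of 10566 genes (0.36%), 12 higher (0.114%) and 26 lower (0.246%). All 38 had the same direction in the test of all 14 libraries, which holds the libraries that picked them, so this is no separate support. With the 14 libraries, DESeq2 called 49 genes (0.447%), 18 higher (0.164%) and 31 lower (0.283%). Limma voom with sample quality weights called 41 (0.374%), 14 higher (0.128%) and 27 lower (0.247%). 20 genes were called by DESeq2, by voom and by edgeR without the 2 libraries, 6 of them higher and 14 lower, and 11 of the 20 are named genes rather than predicted or unnamed ones.

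**Figure D2:**
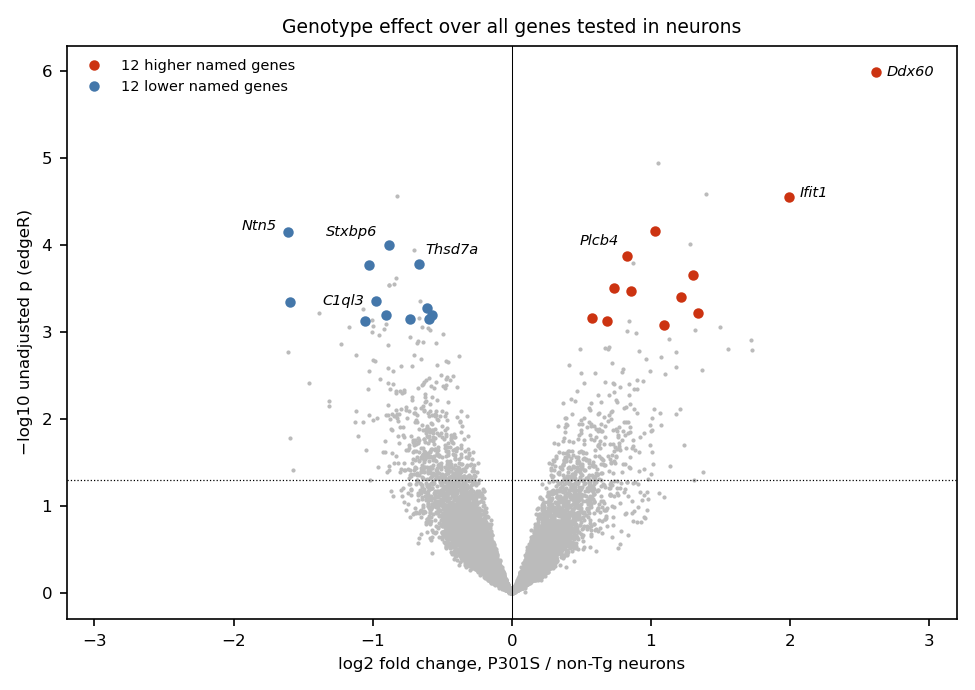
Log2 fold change of P301S over non-Tg neurons (x axis) against -log10 of the unadjusted edgeR p (y axis) for the 10951 genes tested. The 12 higher (red) and 12 lower (blue) named genes with the smallest p are coloured, the dotted line marks an unadjusted p of 0.05, and Ddx60 lies apart from the rest at a log2 fold change of 2.61.

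The gene that rose was Ddx60, an interferon-induced DExD/H-box helicase that takes part in antiviral RNA sensing. Its level was 0 to 3.27 CPM in the 8 non-Tg libraries (median 1.69) and 7.09 to 15.0 CPM in the 6 P301S libraries (median 10.4). The groups did not overlap. The log2 fold change was 2.61 (SE 0.38, edgeR adjusted p = 0.0111), and 3.05 (adjusted p = 0.00138) without non-Tg libraries 5 and 8. These levels rest on 0 to 11 counts per non-Tg library and 13 to 28 per P301S library. Ddx60 and Parp9 were the 2 genes that entered the test with no non-Tg library at the filter's level of 5.29 CPM, so they passed the filter through the P301S libraries alone. With no filter, where 17 of 28776 genes were called (0.0591%), Ddx60 was still among them (log2 fold change 2.60, adjusted p = 3.12e-05). The call was lost without non-Tg library 2, P301S library 4 or P301S library 5, where the adjusted p reached 0.0625 and the log2 fold change stayed between 2.46 and 2.79 over all 14 leave-one-out fits.

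Ifit1, an antiviral protein that binds foreign RNA, was second among named genes. It ranged from 1.58 to 13.3 CPM in non-Tg neurons (median 2.41) and from 14.7 to 26.8 CPM in P301S neurons (median 17.1). The groups did not overlap, and the highest non-Tg value was that of library 5. Its log2 fold change of 1.99 (SE 0.37) did not pass with 14 libraries (edgeR adjusted p = 0.0611) and passed without the 2 libraries (2.23, adjusted p = 0.00152).

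The upstream windows of Ddx60 and Ifit1 are shown because both hold the core of the interferon-stimulated response element, GAAA repeated after any 2 bases, a site bound by interferon-activated transcription factors. The sequences are from RefSeq (GRCm38.p6), plus strand, from 150 bases before the start site to the base before it, at chr8:61927937-61928086 for Ddx60 and chr19:34640739-34640888 for Ifit1. Capitals mark the matches, on either strand.
Ddx60: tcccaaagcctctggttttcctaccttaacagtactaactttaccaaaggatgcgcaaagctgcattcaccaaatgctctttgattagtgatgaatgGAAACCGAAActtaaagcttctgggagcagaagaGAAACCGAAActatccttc
Ifit1: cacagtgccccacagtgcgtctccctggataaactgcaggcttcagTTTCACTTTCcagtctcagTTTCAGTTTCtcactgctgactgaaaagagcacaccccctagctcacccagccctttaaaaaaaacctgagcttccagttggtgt
The Ddx60 matches begin 53 and 19 bases before the start site and read forward, and those of Ifit1 read on the opposite strand. Over windows of 300 bases (250 before to 50 after the start), 3.44% of 32851 windows and 3.99% of 27025 genes held a match on either strand. Among the interferon response genes listed for this comparison, 14 of the 23 with a window held one. These 14 include Ifit3 and Isg15, whose mean levels were lower in P301S neurons. The search found no match in the windows of Herc6 and Irf9. Whether the motif bears on the levels seen here was not tested.

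The interferon list had 31 members, of which 9 had enough counts to be tested. All 9 had log2 fold changes above 0 (46.2% of all genes tested did), 6 of them with an unadjusted p under 0.05, and Ddx60 was called. Their median was 0.82, against -0.02 over all genes tested, and 0.69 over the 7 members other than Ddx60 and Parp9. Without non-Tg libraries 5 and 8, 8 members were tested and all lay above 0, 6 with an unadjusted p under 0.05 and 3 called. Their median was then 0.85, against 0.01 over all genes. Since Ddx60 and Parp9 entered through the P301S libraries alone, the counts over tested members describe them and support nothing further. Herc6, a ubiquitin ligase of the interferon response, was at 2.14 to 9.51 CPM (median 5.16) against 4.39 to 18.3 CPM (median 8.84), with overlapping groups (log2 fold change 1.01, adjusted p = 0.477). Eif2ak2, the RNA-activated kinase PKR, had a log2 fold change of 0.69 (adjusted p = 0.484). Parp9 had one of 0.82 (adjusted p = 0.484), and its groups did not overlap, at 1.07 to 4.90 against 5.29 to 8.23 CPM. Ifi27, Stat2 and Irf9 had log2 fold changes of 0.55, 0.48 and 0.36.

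The other 22 members had too few counts for the test. By mean CPM, 16 were higher in P301S neurons and 6 lower. Untested members of other lists went either way. They were 12 higher and 2 lower for MHC class I and complement genes, and 8 and 1 for activity-regulated genes. For cytosolic ribosomal protein genes they were 2 higher and 13 lower. The interferon count thus describes these members only. Oasl2, an interferon-induced relative of the oligoadenylate synthetases, was named after its values were seen. It was at 0 to 3.58 CPM in non-Tg libraries (median 0.617) and 4.47 to 11.5 CPM in P301S libraries (median 8.71), or 0 to 6 against 10 to 22 counts. The groups did not overlap. With a looser filter of 1 CPM in at least 6 libraries, where 10 of 17012 genes were called (0.0588%), its log2 fold change was 3.12 (SE 0.54, edgeR adjusted p = 0.0279). Oasl2 passed that filter mainly through the P301S libraries and was picked for its values, so this p supports nothing further. Ifit1 passed there too (adjusted p = 0.0286), as did Gpnmb, a glycoprotein of lysosomes known from reactive myeloid cells (log2 fold change 1.74, adjusted p = 0.0382), also named after its values were seen. Other classical members had lower means in P301S neurons: the mean of Ifit2 was 2.08 CPM in non-Tg libraries against 1.38 CPM in P301S ones, that of Ifit3 2.92 and 2.05 CPM, and that of Isg15 1.67 and 1.35 CPM.

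**Figure D3:**
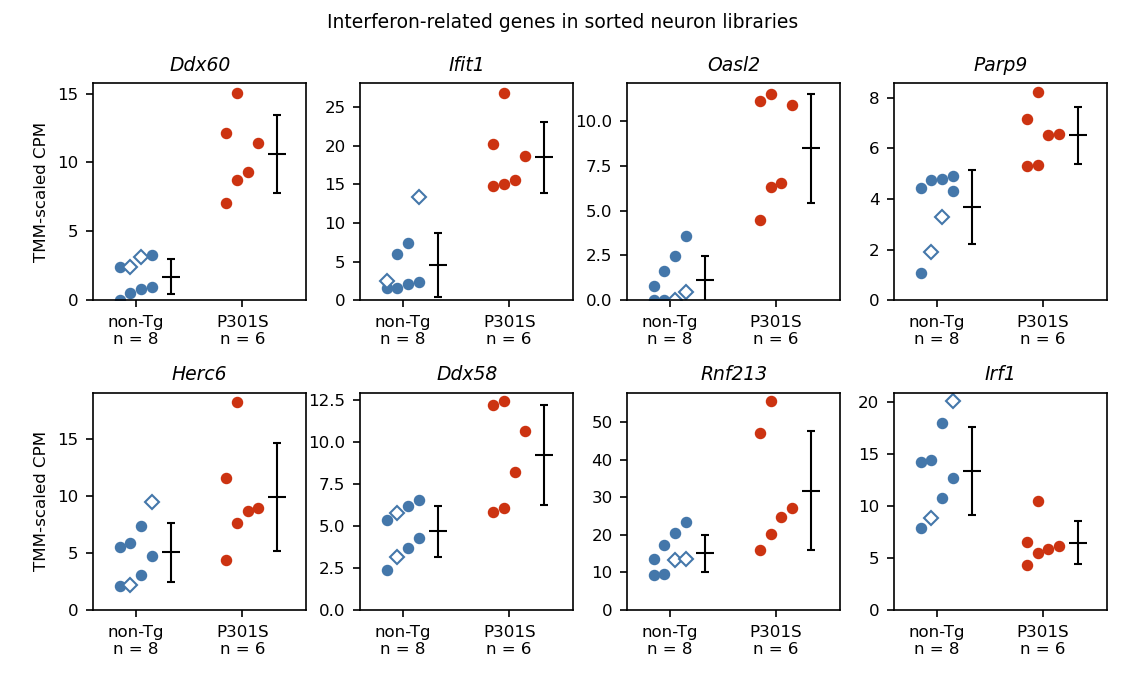
TMM-scaled CPM of 8 interferon-related genes in each neuron library (blue non-Tg, n = 8; red P301S, n = 6; open diamonds, non-Tg libraries 5 and 8), with the mean and SD in black. Ddx60, Ifit1, Oasl2 and Parp9 show no overlap between groups, Herc6, Ddx58 and Rnf213 overlap, and Irf1 is lower in P301S libraries with overlap.

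RNA sensors and regulators outside that list varied. Ddx58, the RNA sensor RIG-I, was at 2.38 to 6.53 CPM against 5.82 to 12.4 CPM, with a log2 fold change of 0.97 (adjusted p = 0.283). Rnf213, an interferon-inducible ubiquitin ligase, ranged from 9.39 to 23.3 CPM in non-Tg neurons (median 13.5) and from 16.0 to 55.5 CPM in P301S neurons (median 26.0; log2 fold change 1.10, adjusted p = 0.208). Irf1, a transcription factor that is itself induced by interferon, had the opposite sign. It was at 7.91 to 20.1 CPM in non-Tg neurons (median 13.5) and 4.36 to 10.4 CPM in P301S neurons (median 5.96), with a log2 fold change of -1.06 (SE 0.27, adjusted p = 0.208). The DNA sensor Cgas and the kinase Tbk1 had log2 fold changes of 0.03 and -0.03.

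Transcripts of glial marker genes were also present in these neuron libraries. The summed level of 16 astrocyte markers ran from 451 to 871 CPM in non-Tg libraries and from 592 to 931 CPM in P301S libraries. Slc1a2 (mean 338 against 434 CPM) and Slc4a4 (170 against 163 CPM) made up most of this sum (mean 618 against 752 CPM). The sum therefore mainly follows these genes, and the cell source of their reads was not tested. Aqp4, Gja1 and Aldoc had means of 7.54, 3.98 and 4.10 CPM against 15.2, 6.86 and 6.70 CPM. Of the 11 astrocyte markers tested, 9 were above 0, 5 of them at an unadjusted p under 0.05, and none was called. Slc4a4 and Atp1b2 were the 2 below 0. Without non-Tg libraries 5 and 8, 8 of 10 astrocyte markers were above 0, 3 of them at that p. The median went from 0.73 to 0.56. Gfap, the astrocyte intermediate filament, was at 0.634 to 10.2 CPM (median 1.54) against 2.61 to 14.8 CPM (median 10.1; log2 fold change 1.72, adjusted p = 0.254). The 13 microglia and myeloid markers summed to 36.8 to 220 CPM against 97.4 to 489 CPM, the highest value being P301S library 1. All 7 tested were above 0, 1 with an unadjusted p under 0.05. Their median log2 fold change was 0.77, and -0.01 without P301S library 1. It was 0.44 without non-Tg libraries 5 and 8, where none had an unadjusted p under 0.05. The 10 oligodendrocyte markers summed to 46.4 to 107 CPM against 78.1 to 94.0 CPM. In the fit of all 25 libraries, Ddx60 averaged 29.4 CPM in astrocytes of non-Tg mice and 161 CPM in those of P301S mice, and its P301S neuron mean of 9.36 CPM was 5.83% of the P301S astrocyte mean. For the astrocyte genes Gfap, Aqp4 and Clu that percentage was 0.845%, 1.65% and 1.19%. For the microglial genes C1qc and Itgam it was 243% and 130%, and in non-Tg mice 141% and 101%. The ranges overlapped: in P301S mice Itgam ran from 11.7 to 73.3 CPM in neurons and 9.76 to 34.8 CPM in astrocytes. C1qc ran from 1.35 to 25.4 CPM and 1.12 to 9.29 CPM. Their mean levels were thus no lower in the neuron than in the astrocyte libraries. Ifit1 in P301S neurons was at 49.2% of the astrocyte level. With the astrocyte, oligodendrocyte and microglia marker levels as covariates, no gene was called by edgeR (423 genes, 3.86%, at an unadjusted p under 0.05), while the log2 fold change was 2.40 for Ddx60 and 1.91 for Ifit1. The part of glial RNA in the values of these genes was not tested further.

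Among the lower genes, none passed edgeR's test in all 14 libraries, where DESeq2 called 31 and voom 27, and 18 named genes passed edgeR's test without non-Tg libraries 5 and 8. C1ql3, a secreted C1q-like protein that organises synapses, was at 105 to 415 CPM in non-Tg neurons (median 269) and 78.4 to 188 CPM in P301S neurons (median 139). The lowest and the highest non-Tg values were those of libraries 8 and 5. Its log2 fold change was -0.98 (SE 0.23, edgeR adjusted p = 0.200), and -1.0 (adjusted p = 0.00646) without the 2 libraries. Pter overlaps C1ql3 on the opposite strand and had a log2 fold change of -0.92, so their reads cannot be told apart where strand was not used in counting. Stxbp6, or amisyn, which binds the SNARE proteins of membrane fusion, was at 91.1 to 195 CPM (median 130) against 52.1 to 100 CPM (median 67.8). 5 of 6 P301S libraries lay below every non-Tg library (log2 fold change -0.88, SE 0.18, adjusted p = 0.121, and -0.84, adjusted p = 0.0189, without the 2 libraries).

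Other lower genes had a range of roles. Thsd7a, a thrombospondin-repeat membrane protein, was at 124 to 214 CPM (median 173) against 88.3 to 131 CPM (median 107), with a log2 fold change of -0.67 (adjusted p = 0.133, and 0.0202 without the 2 libraries). Ndst3, an enzyme that sulfates heparan chains, was at 129 to 196 CPM (median 155) against 71.3 to 127 CPM (median 105), and its groups did not overlap (log2 fold change -0.61, adjusted p = 0.208, and 0.0306 without the 2 libraries). Negr1, a neuronal adhesion protein of the IgLON family, was at 176 to 345 CPM (median 265) against 134 to 215 CPM (median 170; log2 fold change -0.59). Slc5a12, a sodium-coupled monocarboxylate transporter, was at 16.1 to 31.1 CPM (median 21.0) against 6.03 to 16.3 CPM (median 10.9; log2 fold change -1.03). The clock-output transcription factor Hlf was at 28.0 to 49.1 CPM (median 44.1) against 15.4 to 31.3 CPM (median 26.4; log2 fold change -0.74). These 3 passed without the 2 libraries at adjusted p-values of 0.0306, 0.0434 and 0.0434. Ntn5, a netrin-family gene, had the smallest p among lower named genes, at 3.17 to 12.6 CPM (median 7.11) against 1.65 to 3.27 CPM (median 2.57; log2 fold change -1.61, adjusted p = 0.111). No P301S library reached the filter's level of 5.29 CPM, so Ntn5 entered the test through the non-Tg libraries alone, and its rank supports nothing further. It was not among the genes called without the 2 libraries.

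**Figure D4:**
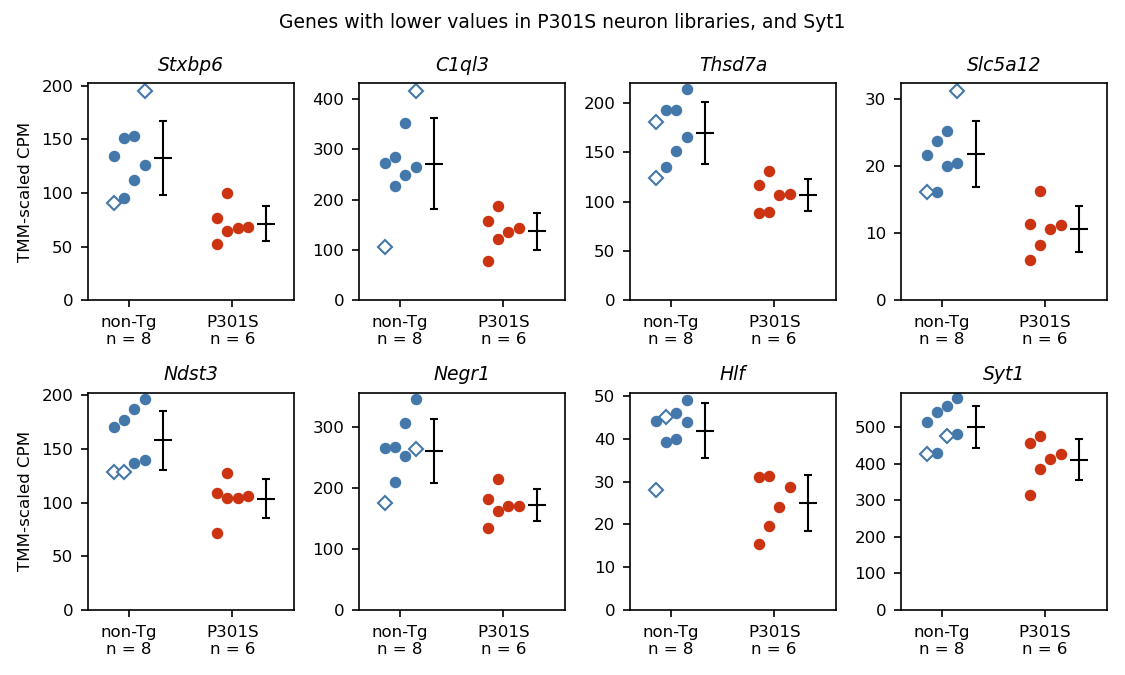
TMM-scaled CPM of 7 genes with lower values in P301S neurons, and of the neuron marker Syt1, per library (blue non-Tg, n = 8; red P301S, n = 6; open diamonds, non-Tg libraries 5 and 8), with the mean and SD in black. Ndst3 is the gene shown whose groups do not overlap; C1ql3 in non-Tg libraries spans 105 to 415 CPM, with libraries 8 and 5 at the ends.

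Further genes called without the 2 libraries, and named after their values were seen, included the heparan sulfate proteoglycan Gpc4 (log2 fold change -1.10, adjusted p = 0.0353), the integrin subunit Itga4 (-0.76, adjusted p = 0.0434), the matrix protein Spon1 (-0.68, adjusted p = 0.0307), the protocadherin Pcdh19 (-0.66, adjusted p = 0.0445) and the reticulon Rtn1 (-0.68, adjusted p = 0.0445). On the higher side were the formin Inf2 (0.88, adjusted p = 0.0307), the postsynaptic protein Lzts1 (1.0, adjusted p = 0.0445), the citron kinase gene Cit (0.96, adjusted p = 0.0434) and the axon guidance receptor Robo3 (0.79, adjusted p = 0.0434). With all 14 libraries the adjusted p of these 9 genes lay between 0.210 and 0.513 (edgeR).

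No neuron subtype marker was called by edgeR with 14 libraries, and the list medians differed in sign. With the same libraries DESeq2 and voom each called C1ql3 and Stxbp6 lower, and voom also called Lhx6 higher and the CA pyramidal marker Dkk3 lower (adjusted p = 0.0334 and 0.0337). Of 12 dentate granule neuron markers, all were tested, 10 were below 0 and 4 had an unadjusted p under 0.05 (C1ql3, Stxbp6, Plk5 and C1ql2), with a median of -0.28. Over all genes tested, 4.68% were lower at that p. Without non-Tg libraries 5 and 8, 7 of these markers had an unadjusted p under 0.05 on the lower side, where 6.73% of all genes did. Their median was then -0.35. Prox1, the defining transcription factor of these cells, had a log2 fold change of -0.15 and Calb1 one of -0.02. The 12 genes summed to between 1202 and 1690 CPM in non-Tg libraries, and to between 962 and 1263 CPM in P301S libraries. Of 10 inhibitory neuron markers 8 were tested and all lay above 0 (46.2% of all genes tested did), with a median of 0.49. Of these, 5 had an unadjusted p under 0.05, Lhx6 among them (3.04% of all genes were higher at that p). Without non-Tg libraries 5 and 8, 7 were tested and all lay above 0, with a median of 0.40. Of those, 3 had an unadjusted p under 0.05, where 655 of 10566 genes were higher. Lhx6, a transcription factor of interneurons from the medial ganglionic eminence, was at 0.816 to 4.69 CPM against 3.27 to 8.23 CPM (log2 fold change 1.34, adjusted p = 0.208). It passed the filter mainly through the P301S libraries, and it was not tested without non-Tg libraries 5 and 8. Gad2, which makes GABA, was at 27.8 to 69.8 CPM against 59.1 to 113 CPM (log2 fold change 0.64, adjusted p = 0.439). The summed inhibitory level was 188 to 372 CPM against 327 to 482 CPM. In bulk samples, fewer or more cells of a type and less or more RNA per cell cannot be told apart. Of 16 markers of interneuron classes 9 were tested, 5 above 0, with a median of 0.09. Adarb2 and Kit, the 2 with an unadjusted p under 0.05, had log2 fold changes of -0.44 and -0.63, while Sst and Sox6 had 0.57 and 0.59. With the inhibitory marker level as a covariate no gene was called (1966 genes, 18%, at an unadjusted p under 0.05), and Ddx60 had a log2 fold change of 3.03.

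Of 12 GABA receptor subunit genes 11 were tested, 8 of them below 0, with a median of -0.26. On the lower side 2 had an unadjusted p under 0.05, as did 4.68% of all genes tested. Without the 2 libraries 7 of 11 had an unadjusted p under 0.05 on the lower side, where 6.73% of all genes did, and none was called. Gabra4, a subunit of receptors outside synapses, had a log2 fold change of -0.71 (adjusted p = 0.439). The metabotropic subunits Gabbr1 and Gabbr2 had values of 0.22 and 0.21.

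Most activity-regulated and chaperone genes tested had log2 fold changes above 0, and none was called by edgeR or DESeq2 with 14 libraries. Voom called Dnajb5 higher (adjusted p = 0.0365). Of 25 activity-regulated genes 16 were tested, 13 above 0 and 3 with an unadjusted p under 0.05 (3.04% of all genes on the higher side). Arc, an immediate-early gene of synaptic plasticity, was at 4.82 to 22.5 CPM (median 8.38) against 8.49 to 40.6 CPM (median 21.0), and the highest non-Tg value was library 8. Its log2 fold change of 1.18 (adjusted p = 0.313) became 1.46 (adjusted p = 0.0353) without the 2 libraries. Of 17 heat shock and chaperone genes 11 were tested, 10 above 0 and 4 higher at an unadjusted p under 0.05 (3.04% of all genes). Dnajb5 was at 32.3 to 94.2 CPM (median 71.7) against 73.8 to 132 CPM (median 117), with a log2 fold change of 0.70 (adjusted p = 0.249, and 0.0434 without the 2 libraries). Hsp90ab1 and Hspa8, which encode cytosolic chaperones, had log2 fold changes of 0.52 and 0.65.

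Mapt ranged over 31.8 to 112 CPM in non-Tg libraries and 37.3 to 76.2 CPM in P301S libraries (log2 fold change -0.02, adjusted p = 0.989). It was highest in non-Tg libraries 5 and 8, and without them its log2 fold change was 0.42 (adjusted p = 0.288). Whether reads of the human transgene were counted under mouse Mapt was not tested. Of 33 genes for tau, microtubule proteins and tau kinases 31 were tested, with a median of 0.07, 2 higher at an unadjusted p under 0.05 and none lower. Presynaptic genes (18 of 20 tested) had a median of 0.00, postsynaptic genes (23 of 23) one of -0.04 and axonal transport motors (19 of 20) one of 0.06. Without non-Tg libraries 5 and 8 the medians were 0.12 for the tau and microtubule list, 0.00 for presynaptic, 0.06 for postsynaptic and 0.19 for motor genes, against 0.01 over all genes. In that fit 16 of the 19 motor genes lay above 0, as did 5410 of all 10566 genes. With all 14 libraries 11 of the 19 did, against 46.2% of all genes. Unfolded protein and integrated stress genes (11 of 20 tested) had a median of 0.04 with none at an unadjusted p under 0.05. None of these lists had a called member. Mitochondrially encoded genes had a median of 0.44 over 7 tested, and of 0.35 without non-Tg libraries 5 and 8. At an unadjusted p under 0.05, 2 were higher with all 14 libraries and none without the 2. The mitochondrially encoded share of counts was 1.52% ± 0.468 (SD, n = 6) against 1.11% ± 0.349 (SD, n = 8), with overlapping groups. Prnp and Apoe had log2 fold changes of 0.06 and 0.79 (adjusted p = 0.968 and 0.795). The nuclear RNA Malat1 had one of 0.01 (adjusted p = 0.995), which turned negative under 10 of the other settings.

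**Figure D5:**
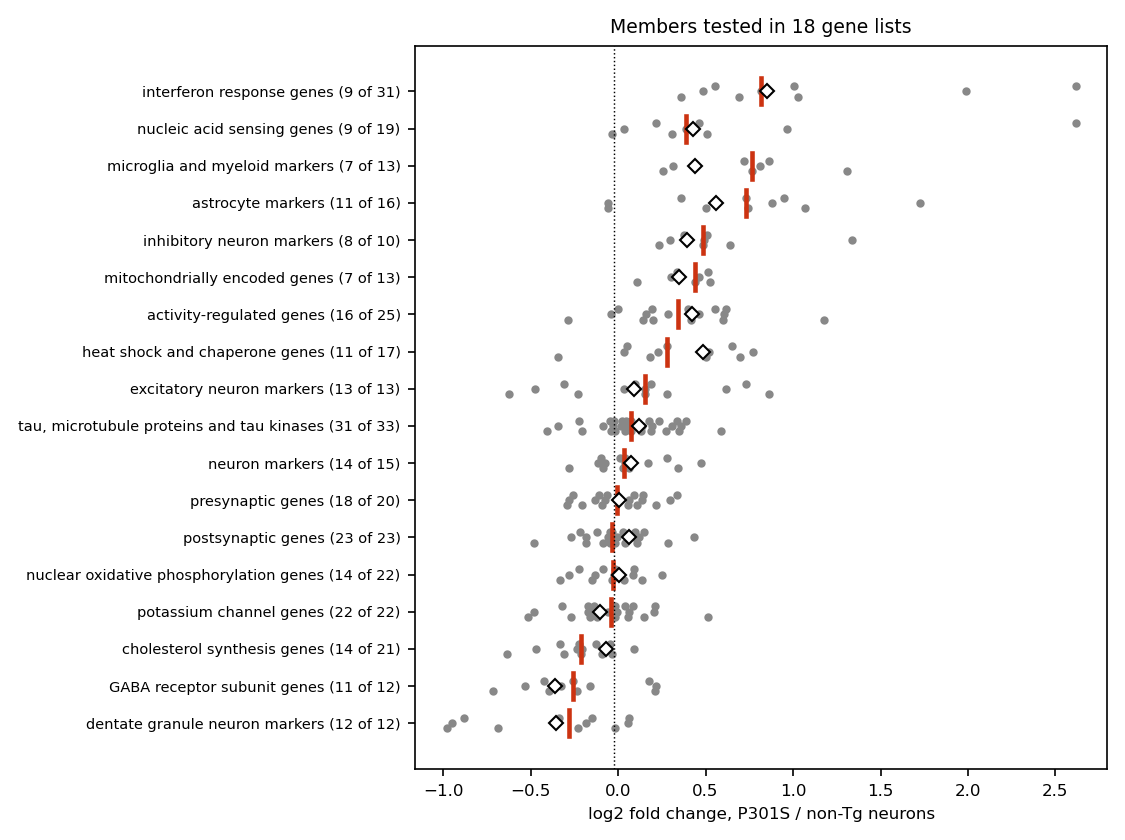
Log2 fold change of P301S over non-Tg neurons for the tested members of 18 gene lists (grey points; tested of all members in brackets), with the median of all 14 libraries (red bar) and the median without non-Tg libraries 5 and 8 (open diamond). The dotted line is the median of all genes tested, -0.02; the medians drawn run from -0.28 (dentate granule neuron markers) to 0.82 (interferon response genes, or 0.69 without the 2 members that entered through the P301S libraries alone).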

How the data were processed

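RNA of sorted neurons was counted per gene. The deposited counts are reads uniquely aligned to a gene model, per the file headers. The authors also deposited RPKM adjusted by size factors. These RPKM values are the counts multiplied by a sample factor and a gene factor, so only the counts were analysed. GSNAP and the build GRCm38 are named in the submitters' processing notes. Strand setting and gene model version: not given in the sources used here. Of 36528 gene IDs, 5479 had no symbol (3.87% of neuron counts) and stayed in every test. Positions are RefSeq, GRCm38.p6.

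Genotype was tested with edgeR 4.0.16 (quasi-likelihood, robust, TMM scaling, filterByExpr at its defaults, R 4.3.3) on the 14 neuron libraries, with calls at an adjusted p (Benjamini-Hochberg) under 0.05. The filter asked for 5.29 CPM in at least 6 libraries. Alternatives were DESeq2 1.42.0, limma 3.58.1 voom with quality weights, RLE and the authors' size factors, other filters, marker covariates, all 25 libraries, and fits without libraries. On simulated data the test called 58 of 97 genes with a true log2 fold change of 1 in size (59.8%). It called all 89 with one of 2, and 8 unchanged genes. The simulated counts were drawn independently, without shifts shared across genes within a library, so these shares may not hold for the real libraries. Changed genes that failed the filter are not counted. No pair of libraries agreed within counting noise (lowest mean chi-square per gene 1.84, where 1 is noise alone). Named genes were the 12 higher and 12 lower with the smallest p (predicted, Xist and Y-linked genes left out), called genes, genes called in at least 3 of 5 fits, up to 3 members per list, and Rbfox3, Syt1, Mapt, Prnp, Apoe and Malat1; genes outside the rule are the ones marked in the text, with Herc6, Eif2ak2, Parp9, Ifi27, Stat2, Irf9, Hspa8, C1ql2, Prox1, Calb1, Cgas, Tbk1, Gabbr1, Gabbr2, Ifit2, Ifit3 and Isg15. The comparison and the 42 gene lists were chosen with earlier results of these data known. A few genes within the rule are left out of the text.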

Additional observations from a re-analysis of the deposited data

Results flagged for a closer look

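In 222 sets of 6 or 8 library values, 25 had 1 library far from the others of its group, and chance flags about 1 in 20 such sets. P301S neuron 1 stood apart for its mitochondrial share of counts (2.43%) and for its summed microglia and myeloid marker level (489 CPM). Library P301S neuron 6 stood apart at 15.5 CPM for Coro6 and 68.4 CPM for Ano4. Library P301S neuron 1 stood apart at 71.1 CPM for Utrn, 10.4 CPM for Irf1, 2704 CPM for COX1 and 30.7 CPM for Apoe. Library P301S neuron 3 stood apart at 124 CPM for Cacna2d2 and 321511 CPM for Malat1. Library P301S neuron 4 stood apart at 74.4 CPM for Spon1. Library non-Tg neuron 2 stood apart at 4.69 CPM for Lhx6. Library non-Tg neuron 8 stood apart at 28 CPM for Hlf, 36 CPM for Plk5, 22.5 CPM for Arc, 62.2 CPM for Npas4, 125 CPM for Cit and 58.5 CPM for Robo3. Library non-Tg neuron 5 stood apart at 93.2 CPM for Tle4, 1015 CPM for Grm5, 353 CPM for Rian, 188 CPM for Mal2, 42.5 CPM for Spon1 and 87.5 CPM for Ptprk. Library non-Tg neuron 4 stood apart at 10.2 CPM for Gfap. 

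The genotype effect on Ifi27, an interferon-induced gene, was larger in astrocytes than in neurons by 2.11 on the log2 scale (edgeR, 1 fit of all 25 libraries, adjusted p = 0.0469). It was the 1 gene past the threshold among 101 examined for that difference, and it was chosen for naming after its values were seen.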

How the results depend on the processing

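With all 14 libraries edgeR called 1 gene, and 91 of the 101 genes followed kept their direction under every alternative fit that gave them a value (all 27 for 93 genes, and 18 or more for the other 8). The count of called genes became 49 with DESeq2, 41 with limma voom, 17 with no filter, 10 with the 1 CPM filter, 38 without non-Tg libraries 5 and 8, and 0 with the glial or the inhibitory covariate. Leaving out 1 library at a time gave 0 to 23 calls (23 without non-Tg library 8, 8 without non-Tg library 5, 5 without P301S library 6, 3 without P301S library 1, 2 without non-Tg library 6, and 0 without non-Tg library 2 or P301S library 4 or 5). The 24 genes whose groups did not overlap became 75 without non-Tg libraries 5 and 8, and 24 to 50 without 1 library. The cause of these shifts was not tested.

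These values changed sign. The difference in total counts, P301S minus non-Tg, was 39535 without the 2 libraries and -405690 to 52537 in leave-one-out. The Malat1 share differed by -0.473 to 0.943 percentage points and the excitatory sum by -6.78 to 72.3 CPM over leave-one-out. Rbfox3 had log2 fold changes of 0.0219 (voom), 0.302 (inhibitory covariate), 0.0429 (without the 2 libraries) and -0.166 to 0.0480 (leave-one-out). Mapt had 0.327 (voom), 0.00838 (glial covariates), 0.127 (inhibitory covariate), 0.416 (without the 2 libraries), 0.00220 (all 25 libraries) and -0.117 to 0.161 (leave-one-out). Prnp had -0.00266 (voom), -0.0163 (sex covariate), -0.0138 (inhibitory covariate) and -0.0468 to 0.187 (leave-one-out). Malat1 had -0.0255 (the authors' size factors), -0.0202 (voom), -0.000639 (no filter), -0.128 (sex covariate), -0.188 (glial covariates), -0.0949 (inhibitory covariate) and -0.0984 to 0.0459 (leave-one-out). With the inhibitory covariate Syt6 had -0.146, Gad2 -0.207, Irf9 -0.0985 and Prox1 0.0624, and with glial covariates ND1 had -0.0503. Calb1 had -0.124 to 0.0791 in leave-one-out. No paired analysis was possible because the labels give no replicate numbers. Depth limits low genes most: 3 counts were up to 2.41 CPM.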
